A study of Mus musculus with 7 samples.

Results

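The importin genes Kpna1, Kpna2, Kpna3, Kpna4, Kpna6 and Kpnb1, together with the Kpna2-like gene Gm10184, were followed in RNA-seq of wild-type and Meioc-null mouse testes. They are 7 of the 21928 genes listed in the deposited abundance files, picked by name, and all 7 passed the filter on low values. Gm10184, listed at 0 in every wild-type library, passed it only through the Meioc-null libraries. Kpna2 and Gm10184 were picked because they differed between the genotypes in these same libraries, so their difference is given as a description, with no test.

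The comparison asked how transcript abundance differs in testes that lack MEIOC, a cytoplasmic protein needed for germ cells to leave the mitotic program. There were 4 wild-type (WT) and 3 Meioc-null (Meioc KO) libraries, all from postnatal C57BL/6N males, and each was made from 1.5 testes of a single pup. Every pup of both genotypes received WIN 18,446, which blocks the synthesis of retinoic acid, at 0.1 mg per gram of body weight daily from postnatal day 2 to 8, and then retinoic acid at 0.0125 mg per gram on day 9. Testes were taken 6.75 days after the retinoic acid, when preleptotene spermatocytes, the cells about to begin meiotic DNA replication, are enriched. The Meioc-null allele had been backcrossed to C57BL/6N, and whole testes, somatic cells included, were used. ERCC spike-in Mix 1 went into wild-type and Mix 2 into Meioc-null samples, and the study did not use them.

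Importin α proteins recognize the classical nuclear localization signal of a cargo protein and hold it for importin β, which carries the complex through the nuclear pore. RanGTP then releases the cargo inside the nucleus, and the exportin CSE1L returns importin α to the cytoplasm. In mammals the importin α genes fall into subfamilies, with Kpna1 and Kpna6 in one, Kpna3 and Kpna4 in another and Kpna2 apart from both, and testicular germ cells switch between them as they differentiate. Kpnb1 encodes importin β. Gm10184 is a gene of a single exon whose sequence matches the spliced Kpna2 transcript.

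The libraries held 12537852 to 20552702 estimated counts. Meioc itself, the gene disrupted, stood at 626 ± 110 CPM in wild type (SD, n = 4) and 370 ± 61.9 CPM in Meioc-null testes (SD, n = 3), so its transcripts were still counted in testes with the null allele. Libraries of a genotype differed by more than counting noise, and no library was a copy of another. By the mean squared difference over counting noise, a ratio that also grows with depth, WT library 1 was nearer to Meioc KO library 1 (10.7) than to the other wild-type libraries (13.9, 19.4 and 23.4). Meioc KO library 1 was likewise nearer to WT library 1 than to Meioc KO libraries 2 and 3 (24.9 and 14.1). Without WT library 1 the genes higher and lower in wild type went from 1059 and 454 to 1440 and 732, and without Meioc KO library 1 to 1275 and 837.

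Before any level is compared, the likeness of Kpna2 and Gm10184 has to be seen, because it decides which reads can be assigned to which gene. Kpna2 lies on the minus strand at chr11:106988629-106999541 (GRCm38) and its main transcript, Kpna2-201 (ENSMUST00000018506.12), has 11 exons. Gm10184 lies on the minus strand at chr17:89908462-89910449, and its transcript, Gm10184-201 (ENSMUST00000086423.4 in the files), has 1. In GENCODE vM21 the transcripts aligned without a gap over 1968 bases, of which 1966 were the same (99.9%). Both coding sequences are 1590 bases long, with 1 stop codon each, at the end, and they differed at 2 positions. Counted from 1 at the A of the start codon, with the Kpna2 base first, these were A696G and C741T. Each is the last base of its codon, and the encoded residues differed at 0 positions. Coding bases 676 to 761 of both are shown because they hold every coding difference, in capitals, between the genes (Kpna2 at chr11:106991238-106991323 and Gm10184 at chr17:89909556-89909641, both minus strand, written 5′ to 3′).
Kpna2-201: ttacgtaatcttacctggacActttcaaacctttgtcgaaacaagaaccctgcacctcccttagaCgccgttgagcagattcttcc
Gm10184-201: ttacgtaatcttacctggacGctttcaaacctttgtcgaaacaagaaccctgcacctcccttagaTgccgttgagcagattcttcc
The stretch crosses 0 exon junctions of Kpna2. The differing bases sit 45 bases apart, so a 50-base read, the length sequenced here, can cover both.

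**Figure D1:**
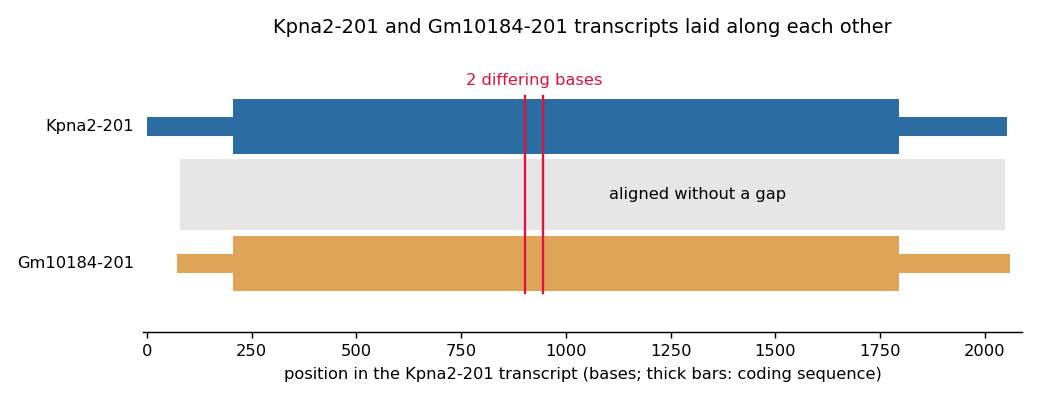
Kpna2-201 and Gm10184-201 laid along each other by position in the Kpna2-201 transcript (bases), with coding sequence as thick bars, the aligned stretch in grey and differing bases as red lines. The 2 differences lie 45 bases apart inside the coding sequence, and the first 80 bases of Kpna2-201 have no counterpart in Gm10184-201.

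Of the 2005 possible 50-base windows of Kpna2-201, 1824 (91.0%) were found letter for letter in Gm10184-201. The other 181 covered a differing base, in 95 windows of the coding sequence, or reached into the transcript ends, where the first 80 and last 6 bases of Kpna2-201 lie outside the alignment. Of the 1939 windows of Gm10184-201, 115 were absent from Kpna2-201. The split of counts between the genes therefore rests on reads over a small part of either transcript. The deposited files list Gm10184-201 at 1939 bases, an earlier version of the 1988-base model compared here, so its ends may differ from those described. The reads were not used here, so which bases they carried at coding positions 696 and 741 was not tested.

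No other pair of members shared a 31-base word, the unit by which kallisto assigns reads. The coding sequences of Kpna1 and Kpna6 were 74.1% identical and those of Kpna3 and Kpna4 75.0%, against 58.1% for Kpna2 and Kpna6. Apart from Kpna2 and Gm10184, reads of the members therefore had no exact match of that length in another member.

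Kpna2, an importin α abundant in proliferating cells, had 2497, 3520, 3372 and 4200 estimated counts in wild-type libraries 1 to 4. In the Meioc-null libraries it had 828, 343 and 762 counts. The highest Meioc-null value lay far below the lowest wild-type value. Scaled for library composition with TMM, Kpna2 stood at 197, 245, 227 and 211 CPM (counts scaled to a common library total) in wild type and at 44.1, 24.8 and 41.3 CPM in Meioc-null testes. The means were 220 ± 20.9 (SD, n = 4) and 36.7 ± 10.4 CPM (SD, n = 3), a log2 fold change (wild type/Meioc knockout) of 2.58 ± 0.19 (SE; 95% confidence interval 2.16 to 3.00), or 5.97-fold. Every wild-type CPM was above every Meioc-null CPM, as in 15.4% of all tested genes, and Kpna2 was picked for its difference. The interval covers variation of the assigned counts between libraries only. Since most reads of Kpna2 would also match Gm10184, neither the fold nor the interval bounds the level of Kpna2 transcripts themselves.

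Gm10184 ran the opposite way. It was listed at 0 counts in each of the 4 wild-type libraries, and 10.8% of all tested genes had every wild-type CPM below every Meioc-null CPM. In the Meioc-null libraries it had 2376, 1578 and 2115 counts, or 126, 114 and 115 CPM. The mean was 118 ± 7.02 CPM (SD, n = 3), at least 501-fold higher than wild type when the wild-type level is set at 3 counts in the shallowest library. Such a floor lay between 0.151 and 0.236 CPM per wild-type library. It covers counting error in the assigned counts only, and since most reads of Gm10184 would also match Kpna2, neither the floor nor the fold bounds the level of Gm10184 transcripts themselves.

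Added together, the pair differed far less than either gene. The sum was 197, 245, 227 and 211 CPM in the wild-type libraries, and 171, 139 and 156 CPM in the Meioc-null ones. All 4 wild-type values were above all 3 Meioc-null values. The means were 220 ± 20.9 (SD, n = 4) and 155 ± 15.9 CPM (SD, n = 3), and the log2 fold change was 0.50 ± 0.10 (SE; 95% confidence interval 0.28 to 0.73), or 1.42-fold. Because the sum holds Kpna2 and Gm10184, which were picked on this contrast, it was given no test. Of all 13630 tested genes, 15.4% had every wild-type CPM above every Meioc-null CPM. The difference was smaller in TPM (counts divided by transcript length and scaled to the same total in each library). There the sum was 187 ± 11.3 in wild type (SD, n = 4) and 164 ± 9.83 in Meioc-null testes (SD, n = 3), or 1.15-fold. Its log2 fold change was 0.19 on the log2(TPM + 1) scale. The median of all tested genes was -0.23 on that scale and -0.01 in edgeR. Relative to the median of -0.23, the sum was at 0.42. The lowest wild-type library, at 175.6 TPM, was just above the highest Meioc-null library, at 174.5 TPM, a separation in this direction seen in 4.93% of all tested genes. Without WT library 1 the log2 fold change of Kpna2 was 2.63 and that of the sum 0.55, and without Meioc KO library 1 they were 2.73 and 0.58, in CPM.

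**Figure D2:**
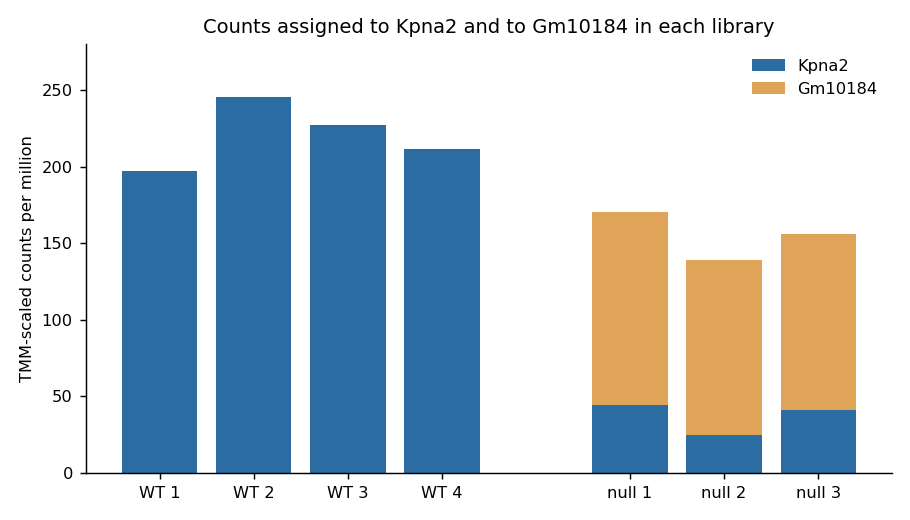
TMM-scaled CPM assigned to Kpna2 (blue) and Gm10184 (orange) in each library, stacked, for wild type (WT 1 to 4) and Meioc-null (null 1 to 3). Orange is absent from the wild-type bars and makes most of each Meioc-null bar, while the bar heights run from 197 to 245 in wild type and from 139 to 171 in Meioc-null testes.

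Kpna2 made up 100% of the pair's counts in every wild-type library. In the Meioc-null libraries its share was 25.8%, 17.9% and 26.5%, with a mean of 23.4% ± 4.81 (SD, n = 3). Every Meioc-null library therefore carried counts for both genes. In TPM the Meioc-null share was 23.3% ± 5.12 (SD, n = 3). The short transcript Kpna2-202 (541 bases) held 3 to 7 counts in wild type and 1 to 9 in Meioc-null libraries, so nearly all Kpna2 counts belonged to Kpna2-201.

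Kpna2 also lies on the chromosome that carries Meioc. Meioc is at chr11:102663716-102682237 (GRCm38), and Kpna2 starts 4.32 Mb from its start, whereas Kpnb1 lies farther off on the other side and Gm10184 is on chromosome 17. Loss of MEIOC and sequence that travels with the Meioc-null allele on chromosome 11 cannot be told apart in this design. Kpna2 was left out of a count of the genes around Meioc, since it was picked on this contrast. Of the other 177 genes tested within 5 Mb, 20 (11.3%) had an adjusted p under 0.05 in edgeR, against 11.1% of all tested genes, and the median log2 fold change of the 177 was 0.03. The number called was 27, 6, 8 and 11 without WT library 1, 2, 3 or 4, and 24, 9 and 4 without Meioc KO library 1, 2 or 3. Those with the smallest adjusted p were Cntd1 (1.47 ± 0.20 SE, adjusted p = 0.00644), Erbb2 (-1.13 ± 0.16, adjusted p = 0.00696), C1ql1 (-1.34 ± 0.20, adjusted p = 0.00922) and Nsf (0.53 ± 0.08, adjusted p = 0.0106; edgeR quasi-likelihood test). They differed in both directions. Around Gm10184, 3 of 25 tested genes within 5 Mb (12%) passed, with 6 without WT library 1 or Meioc KO library 1, 2 without WT library 4, and 0 without any one of the others.

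**Figure D3:**
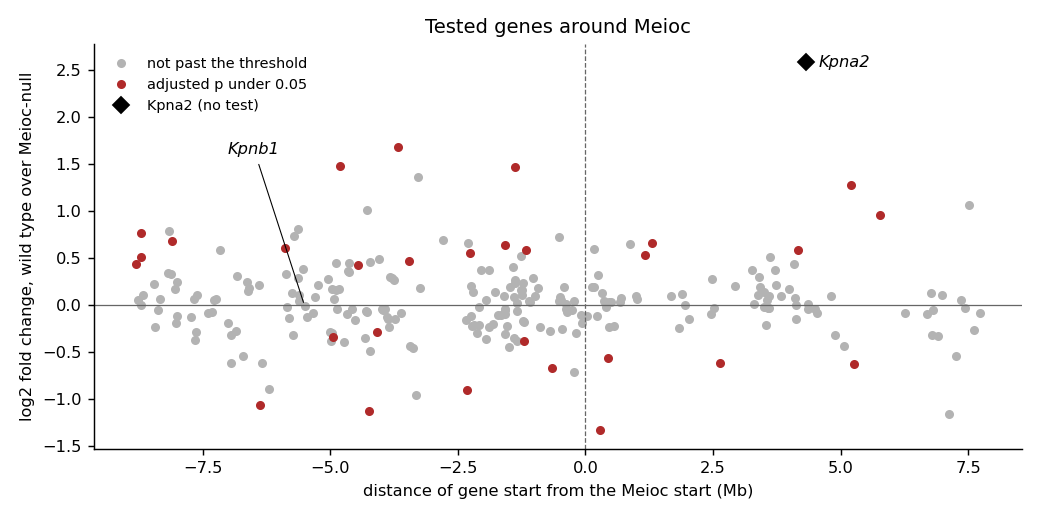
log2 fold change (wild type over Meioc-null) of the tested genes against the distance of their start from the Meioc start in Mb, with genes past the threshold in red and Kpna2 as a diamond. Kpna2, picked on this contrast and given no test, stands at 2.58 and Kpnb1 at -0.01, and genes past the threshold lie on both sides of 0.

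The remaining importins showed no difference that passed the test. Of Kpna1, Kpna3, Kpna4, Kpna6 and Kpnb1, 0 of 5 had an adjusted p under 0.05 in edgeR, where 11.1% of all tested genes did, and 1 had an unadjusted p under 0.05. The count was also 0 with DESeq2 and with limma on log2(TPM + 1), and over all settings tried the smallest adjusted p of any of them was 0.0655, for Kpna3. In 0 of the 5 were the CPM values of the genotypes separate, as they were in 26.2% of all tested genes.

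In the Kpna1 and Kpna6 subfamily, Kpna1 (chr16:35978750-36037131) had 101, 109, 109 and 111 CPM in the wild-type libraries, and 106, 104 and 111 CPM in the Meioc-null ones. Its log2 fold change was 0.01 ± 0.07 (SE; 95% confidence interval -0.16 to 0.17; adjusted p = 0.955, edgeR), a value whose sign turned under other scalings. Kpna6 (chr4:129643980-129672767) had 132, 140, 143 and 143 CPM in the wild-type libraries, and 139, 123 and 130 CPM in the Meioc-null ones. Its log2 fold change was 0.09 ± 0.08 (SE; interval -0.08 to 0.26; adjusted p = 0.441, edgeR). The genotypes overlapped for both genes.

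In the other subfamily, Kpna3 (chr14:61365211-61439874) had 131, 142, 147 and 173 CPM in the wild-type libraries, and 125, 120 and 131 CPM in the Meioc-null ones. Wild-type library 4 was the highest, and wild-type library 1 lay just below the top Meioc-null library. The log2 fold change was 0.24 ± 0.10 (SE; interval 0.02 to 0.47), with an unadjusted p of 0.0364 and an adjusted p of 0.137 (edgeR). On the log2(TPM + 1) scale Kpna3 stood at -0.04. Kpna4 (chr3:69067149-69127113) had 156, 159, 155 and 160 CPM in the wild-type libraries, and 148, 156 and 162 CPM in the Meioc-null ones. Its log2 fold change was 0.02 ± 0.07 (SE; interval -0.13 to 0.17; adjusted p = 0.854, edgeR).

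Kpnb1 (chr11:97159714-97187881), the importin β that all importin α proteins use, had 404, 382, 372 and 374 CPM in the wild-type libraries, and 408, 379 and 373 CPM in the Meioc-null ones. The libraries of the genotypes ran over the same range. The log2 fold change was -0.01 ± 0.07 (SE; interval -0.17 to 0.14; adjusted p = 0.926, edgeR).

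The members' 10 listed transcripts all passed the filter, and those of Kpna2 and Gm10184 were given no test. Of the 7 outside Kpna2 and Gm10184, 0 passed at an adjusted p under 0.05, where 0.0639% of 21920 transcripts did, and 1 had an unadjusted p under 0.05. That transcript was Kpna6-201 (2195 bases), at 9.58, 11.7, 13.1 and 12.3 TPM in wild type and 8.83, 11.9 and 7.42 TPM in Meioc-null testes. Its log2 fold change was 0.56 ± 0.19 (SE; adjusted p = 0.211, edgeR). The longer Kpna6-202 (5710 bases) carried most of the gene, 68.9% ± 3.58 of its TPM in wild type (SD, n = 4) and 76.2% ± 4.14 in Meioc-null testes (SD, n = 3). Kpna4-203 likewise held 93.0% ± 0.624 of Kpna4 in wild type and 91.8% ± 1.67 in Meioc-null testes.

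Levels of different genes were compared per length, in TPM. In wild type the order was Kpna2 (187 ± 11.3), Kpnb1 (93.6 ± 9.39), Kpna4 (80.0 ± 3.77), Kpna3 (68.4 ± 6.87), Kpna1 (37.6 ± 0.804) and Kpna6 (37.5 ± 0.833; mean ± SD, n = 4), with Gm10184 listed at 0. The ranges of Kpna4 and Kpna3 overlapped, as did those of Kpna1 and Kpna6. In Meioc-null testes the order was Gm10184 (125 ± 9.39), Kpnb1 (112 ± 9.77), Kpna4 (92.2 ± 6.32), Kpna3 (70.0 ± 3.31), Kpna1 (44.5 ± 2.45), Kpna6 (39.1 ± 3.14) and Kpna2 (38.3 ± 9.28; mean ± SD, n = 3). There Gm10184 overlapped Kpnb1. Kpna2, from 28.1 to 46.2 TPM, overlapped both Kpna6 and Kpna1, which ran from 42.6 to 47.3 TPM. Taken as 1 gene, Kpna2 and Gm10184 stood at 164 ± 9.83 TPM, above every other member in both genotypes.

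**Figure D4:**
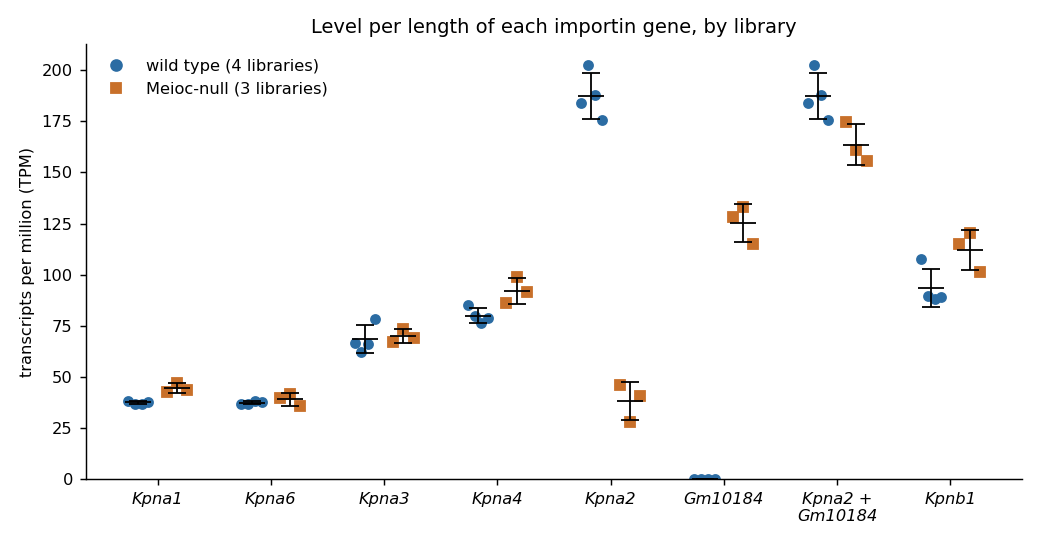
TPM of each importin gene, and of Kpna2 and Gm10184 added, in every library (circles, wild type; squares, Meioc-null), with the mean and SD in black. Kpna2 and Gm10184 trade places between the genotypes, whereas their sum stays the highest level, at 187 in wild type and 164 in Meioc-null testes.

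All importin α genes together, with Kpna7 and Gm10184, came to 411 ± 5.21 TPM in wild type (SD, n = 4) and 410 ± 13.5 TPM in Meioc-null testes (SD, n = 3). The pair's part was 44.6%, 48.4%, 46.2% and 43.0% in wild type and 42.5%, 38.1% and 39.3% in Meioc-null testes. The lowest wild-type share, 43.0%, was just above the highest Meioc-null share, 42.5%, for a pair picked on this contrast. By the TPM of single genes, not shares of a total, 4.93% of all tested genes were separate in this direction. The share of Kpna4 was 19.5% ± 0.865 in wild type and 22.5% ± 1.34 in Meioc-null testes, and that of Kpna1 was 9.14% ± 0.252 and 10.9% ± 0.437. For Kpna4 and Kpna1 every Meioc-null share was above every wild-type share. The shares are parts of the same total, so a lower share of the pair leaves more to the other genes. By the TPM of single genes, not shares of a total, 28.4% of all tested genes were separate in the direction of Kpna4 and Kpna1. Kpna7, the importin α of oocytes and early embryos, held 0.0475% and 0.0390% and fell below the filter.

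On the TPM scale the Meioc-null levels of Kpna1 and Kpna4 lay above all wild-type levels, as they did for 28.4% of all tested genes. The median log2 fold change of all genes was -0.23 on the log2(TPM + 1) scale and -0.01 in edgeR. Relative to the median of -0.23, Kpna1 was at -0.01, Kpna4 at 0.03, Kpnb1 at -0.04, Kpna6 at 0.17, Kpna3 at 0.19 and the Kpna2 and Gm10184 sum at 0.42.

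Markers of the cell types in the testis were measured beside the members. Of all tested genes, 11.1% passed the test in edgeR. Of the germ cell genes, Dazl passed the test (0.58 ± 0.09 SE, adjusted p = 0.0112) and Ddx4 did not (0.24 ± 0.08, adjusted p = 0.0813; edgeR for all markers), with Ddx4 at -0.03 on the log2(TPM + 1) scale. Their sum ran from 1232 to 1395 CPM in the wild-type libraries and from 836 to 971 CPM in the Meioc-null ones. Of 4 markers of undifferentiated spermatogonia, 1 passed, Zbtb16, which was lower in wild type (-0.86 ± 0.18, adjusted p = 0.0213). Etv5 was at -0.47, Gfra1 at -0.14 and Id4 at 0.15, none past the threshold, and the sum of the 4, from 105 to 125 against 141 to 228 CPM, came mostly from Zbtb16. Of 3 markers of differentiating spermatogonia and preleptotene cells, Kit passed (0.55 ± 0.11, adjusted p = 0.0175), whereas Stra8 at 1.14 ± 0.40 (adjusted p = 0.0948) and Ccnd2 at -0.17 did not. Their sum was 397 to 663 against 296 to 395 CPM. Of 2 markers of later meiotic stages, Meiob passed (1.56 ± 0.30, adjusted p = 0.0174), with 3.69 to 7.55 CPM in wild type and 1.41 to 1.97 CPM in Meioc-null testes, and Piwil1 stood at -0.70 (adjusted p = 0.106). Their sum, 7.04 to 9.86 against 5.69 to 8.74 CPM, overlapped, while the genes themselves ran in opposite directions. The sums of the germ cell, undifferentiated and differentiating lists did not overlap between the genotypes, the last only at 397 against 395 CPM. The CPM of single genes was separate in 26.2% of all tested genes, which is no background for sums of several genes. No marker of Sertoli, Leydig or myoid cells, endothelium or macrophages passed the test, and the summed level of each of these lists overlapped. The Leydig marker Dlk1 alone did not overlap between the genotypes among them, at 12.4 to 16.9 CPM in wild type and 17.4 to 22.3 CPM in Meioc-null testes (-0.45 ± 0.15, adjusted p = 0.0738). Without 1 library, Dazl kept its call in every fit, whereas Zbtb16 and Kit each lost it in 4 of 7 fits and Meiob in 3. With replicate number in the model none of these passed. No marker was at or under 3 counts in all libraries. The part of cell composition in the importin values was not tested, and in bulk testes fewer cells of a type and less RNA per cell cannot be told apart.

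The other genes of nuclear transport gave the setting of the members. Of 61 tested genes of the list, Kpna2 and Gm10184 left out, 8 (13.1%) were higher in wild type and 1 (1.64%) was lower, beside 7.77% and 3.33% of all tested genes. The median log2 fold change was 0.11, against -0.01 for all genes. These calls depended on the setting, with 0 higher and 4 lower on the log2(TPM + 1) scale, and 16, 1, 0 and 1 higher without WT library 1, 2, 3 or 4, and 10, 1 and 0 without Meioc KO library 1, 2 or 3.

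In the import β list, the adaptor Snupn included, 1 of 11 genes was higher in wild type (9.09%, beside 7.77% of all tested genes). It was Ipo5, an importer of histones and ribosomal proteins (0.43 ± 0.12 SE, adjusted p = 0.0448). Of 9 export and bidirectional genes, 2 (22.2%) were higher in wild type and 1 (11.1%) was lower, beside 7.77% and 3.33% of all tested genes. They were Cse1l, which recycles importin α (0.38 ± 0.09, adjusted p = 0.0309), Ipo13 (0.50 ± 0.14, adjusted p = 0.0490) and the tRNA exporter Xpot (-0.37 ± 0.07, adjusted p = 0.0174; edgeR for all). Cse1l, the partner closest to the members, ran from 219 to 272 CPM in the wild-type libraries, and from 182 to 204 CPM in the Meioc-null ones. Of 8 Ran cycle genes, 0 passed, where 11.1% of all tested genes did, with 1 at an unadjusted p under 0.05. Without 1 library, Ipo5 lost its call in 6 of 7 fits, Cse1l and Ipo13 in 5 each and Xpot in 3.

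Of 29 nucleoporin genes tested, 5 (17.2%) passed, all higher in wild type, beside 7.77% of all tested genes. They were the mRNA export factor Rae1 (0.57 ± 0.11 SE, adjusted p = 0.0167), the membrane nucleoporin Nup210 (0.60 ± 0.13, adjusted p = 0.0209), Nup93 of the inner ring (0.39 ± 0.09, adjusted p = 0.0295), and Nup85 (0.44 ± 0.11, adjusted p = 0.0304) and Nup107 (0.36 ± 0.09, adjusted p = 0.0319) of the outer ring, all in edgeR. On the log2(TPM + 1) scale the values of these 5 ran from 0.10 for Nup107 to 0.34 for Nup210, with none past the threshold. Without 1 library, Rae1 lost its call in 3 of 7 fits, Nup210 in 4, and Nup93, Nup85 and Nup107 in 5 each. With replicate number in the model none of them passed.

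**Figure D5:**
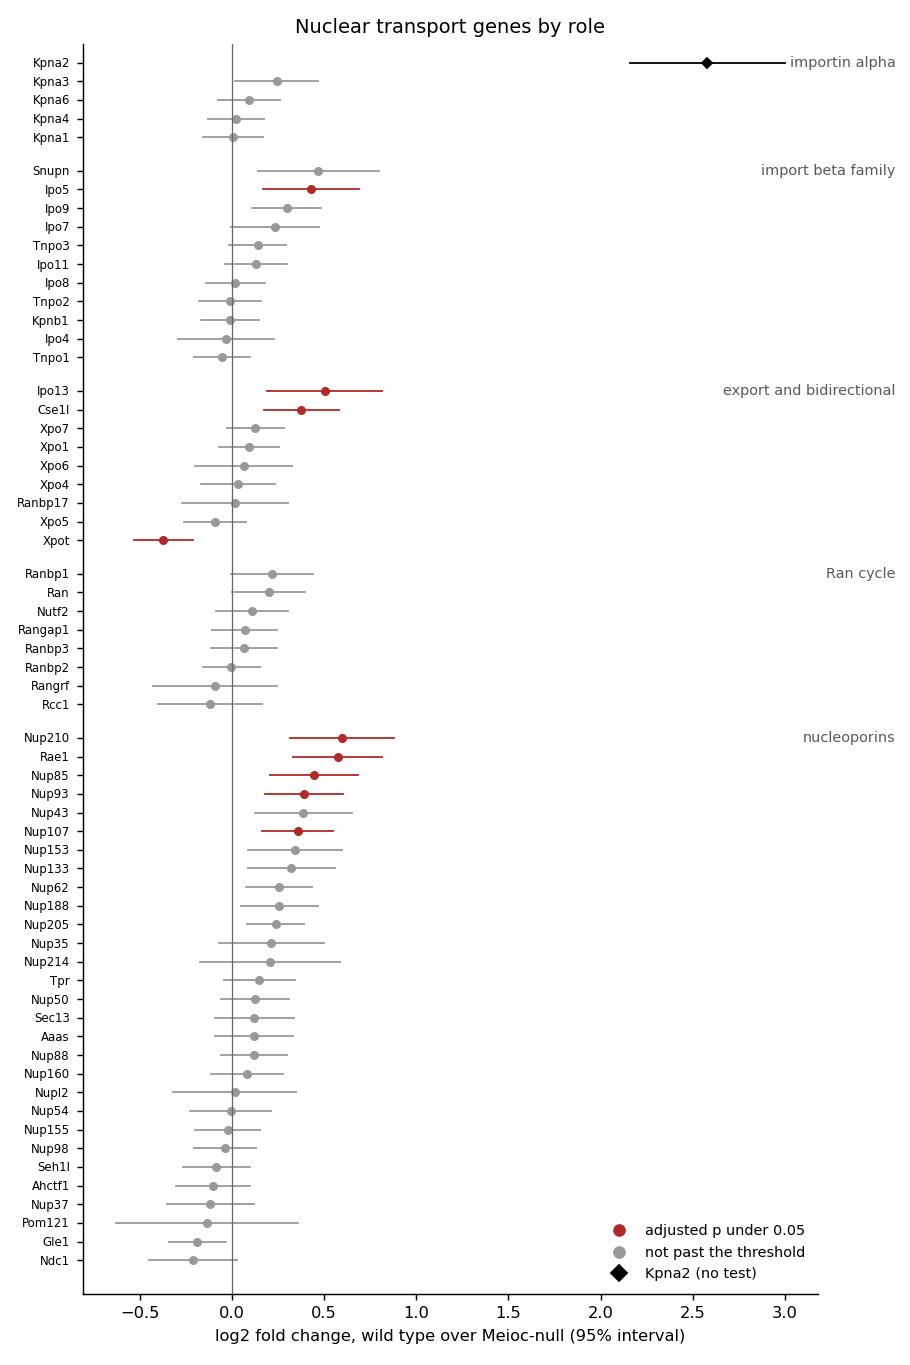
log2 fold change (wild type over Meioc-null) with its 95% confidence interval for the tested nuclear transport genes, grouped by role, with genes past an adjusted p of 0.05 in red and Kpna2 as a black diamond. Kpna2, picked on this contrast and given no test, stands at 2.58, and its sum with Gm10184, at 0.50, is not drawn. The other importin α genes lie between 0.01 and 0.24, and Xpot is the only red point below 0.

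Over the 7 libraries, the tested genes most like Kpna2 in log2(CPM + 0.5) were Imp4, Boll and Fam118a, with a Pearson r of 0.997, 0.996 and 0.995. Those most like Gm10184 were Kctd10 (r = 0.994), Ppp2r5d (r = 0.993) and Ctdsp1 (r = 0.990). The genotypes form separate clusters for Kpna2 and Gm10184, and 860 genes reached 0.9 with Kpna2 and 272 with Gm10184. For the sum the closest were Dedd (r = 0.995), Sap30l (r = 0.994) and Hnrnpk (r = 0.993), and for Kpnb1 they were Arhgap24 (r = 0.986), Leprotl1 (r = 0.975) and Sumf1 (r = 0.973). The points share library and depth, so these are descriptions.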

How the data were processed

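RNA was measured in 4 wild-type and 3 Meioc-null libraries, with 12537852 to 20552702 estimated counts each. The authors trimmed 50-base single-end stranded reads with cutadapt 1.8, estimated transcript counts and TPM with kallisto 0.44.0 (bias correction, strand-specific, GENCODE Basic vM15, mm10) and deposited estimated counts and TPM for protein-coding transcripts. The deposited length and effective length columns were not tested. Here, 43020 of 43139 transcripts were matched by Ensembl ID to GENCODE vM21 (GRCm38) and summed over 21928 genes. Genes with at least 1 TPM in at least 3 libraries (13630) were rounded to whole counts and fitted in edgeR 4.0.16 (TMM, quasi-likelihood, R 4.3.3) with Benjamini-Hochberg adjustment. DESeq2 1.42.0 and limma 3.58.1 were alternatives. Kpna2 and Gm10184 were also summed before fitting. Only the edgeR fit by gene was tried on simulated data.

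The members, gene lists and tests were chosen with earlier results of these data known. Named genes were the members, their transcripts and called transport genes (at most 6 per direction by adjusted p). The 3 genes most correlated with Kpna2, Gm10184, Kpnb1 and the sum were also named. Near Meioc the rule took the 5 genes with the smallest adjusted p. Kpna2 was among these and was left out there, as it was given no test. Ipo5 and Ipo13 fall outside the rule for transport genes and were named after their values were seen. Of 65 transport genes, 2 fell below the filter. Libraries came from separate pups. Sequences were read from GENCODE vM21 transcripts.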

Additional observations from a re-analysis of the deposited data

Results flagged for a closer look

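Kpnb1 had 1 wild-type library apart from the others in TPM. Library 1 stood at 108 TPM and the other three at 89.4, 88.2 and 89.0 TPM, so the gap to the nearest was 0.936 of the whole range, above the 0.829 that Dixon's test allows for 4 values. In CPM the same library, at 404, was not apart by this measure. Chance marks about 1 in 20 groups, and 23 sets of wild-type values were examined.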

How the results depend on the processing

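The log2 fold change of Kpna2 kept its direction under all 14 alternatives, from 2.37 to 2.73 when 1 library was left out, and so did the Kpna2 and Gm10184 sum, at 0.43 to 0.58. For Kpna2 alone, every alternative rests on the same assignment of shared reads. The sum stood at 0.19 on log2(TPM + 1) and at 0.20 on log2(TPM + 0.1) values. The lower bound for Gm10184 ran from 484 to 566 without 1 library, and no bound was made on TPM, which keeps no counts. Kpna2's share of the pair ran from 21.9% to 26.2% in Meioc-null testes without 1 library and stayed at 100% in wild type.

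No alternative brought any of the other 5 importins past the threshold, but signs near 0 turned. Kpna1 was -0.0024 with RLE, -0.070 with library size alone, -0.0022 with DESeq2, -0.24 on both TPM scales and -0.0093 with the replicate block. On log2(TPM + 1) and log2(TPM + 0.1), Kpna3 was -0.036 and -0.036, Kpna4 -0.20 and -0.20, and Kpna6 -0.057 and -0.059. Kpna4 was -0.055 with library size alone. Without 1 library, Kpna1 ran from -0.017 to 0.039, Kpna3 from 0.15 to 0.30, Kpna4 from -0.012 to 0.052, Kpna6 from 0.05 to 0.14 and Kpnb1 from -0.039 to 0.029. Of the transcripts, Kpna1-201 was 0.0036 with no filter, and on log2(TPM + 1) Kpna3-201 was -0.036, Kpna4-203 -0.18 and Kpna6-202 -0.20. Without 1 library, Kpna1-201 ran from -0.039 to 0.031, Kpna6-202 from -0.057 to 0.064, Kpnb1-201 from -0.059 to 0.013 and Kpna2-202, with few counts, from 0.11 to 1.48.

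Counts of calls depended on the scale and on single libraries. Higher and lower in wild type came to 1059 and 454 genes in edgeR, 440 and 2082 on log2(TPM + 1), 443 and 2063 on log2(TPM + 0.1), and 814 and 899 with library size alone. DESeq2 gave 875 lower. Without 1 library they ran from 113 to 1440 and from 18 to 837. In the transport list without the pair, 8 and 1 became 5 and 2 with library size alone, 0 and 4 on log2(TPM + 1), 0 and 3 on log2(TPM + 0.1), and 15 higher with DESeq2. Without 1 library they ran from 0 to 16 and from 0 to 1, with 0 left without WT replicate 3 or Meioc KO replicate 3. Genes called near Meioc, 21 with Kpna2 counted and 20 with it left out (a choice made after seeing the data), ran from 5 (without Meioc KO replicate 3) to 28, and those near Gm10184 from 0 to 6, with 6 within 10 Mb. The cause was not tested.

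Same-numbered libraries of the genotypes did not deviate together (correlations of -0.04, -0.10 and -0.21). So few correlations cannot exclude a pairing by number, and the main fit used none. With the replicate block, 94 genes were higher and 15 lower, 0 and 0 in the transport list. The 0 counts of Gm10184 in wild type rest on how shared reads were assigned and on the 115 of 1939 windows not found in Kpna2-201, so depth alone sets no limit on its level.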
